A study of Homo sapiens with 4 samples.

Results

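The TMBIM family is a group of multi-pass membrane proteins named after the transmembrane BAX inhibitor motif. Its 6 sought members (TMBIM1, TMBIM4, TMBIM6, GRINA, FAIM2 and GHITM) were looked up by gene symbol in the deposited table, and 5 of them had a row among its 30716 genes. The expression of FAIM2 was not analysed here, and it appears below only in comparisons of sequence. All 5 members with a row passed the filter on low counts, which kept 18035 genes. The members were chosen by name after TMBIM6 counts and FPKM were seen to be lower in this same comparison, so the members' values are given as a description, without a test.

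RNA-seq was performed on KYSE30, a cell line established from a human squamous carcinoma of the esophagus, in 4 libraries. The shYY1 group (2 libraries) carried a short hairpin RNA against YY1, a DNA-binding zinc finger protein that can raise or lower transcription of its targets. The shNC group (2 libraries) carried a negative-control hairpin. Both groups consisted of cells kept in puromycin to select stable carriers, so hairpin expression and selection were common to them. How many hairpins or clones were used, and their sequences, is not stated in the labels, and loss of YY1 and other effects of its hairpin cannot be told apart. The labels give no statement that replicates came from separate cultures, so p-values reflect only how these libraries vary, which may be technical.

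Total counts ranged from 67390336 to 72499865 per library. YY1 itself had 2606 and 2344 counts in the shYY1 libraries, against 8147 and 7960 counts in the shNC libraries, so both groups matched their labels. The labels' extraction protocol mentions retinas, and the 2 retina markers with a row summed to at most 0.637 CPM (counts scaled to library size) in any library. The 8 squamous epithelial markers summed to 1071.5 to 1080.2 CPM in shYY1 and 911.9 to 970.3 CPM in shNC, mostly from SFN, CDH1 and EPCAM, which epithelia express in general, so the sum does not show squamous identity. The basal keratins were low: KRT5 had 0.454 to 0.640 CPM in shYY1 and 0.357 to 0.457 CPM in shNC, and KRT14 had 3.75 to 4.0 CPM in shYY1 and 3.74 to 4.67 CPM in shNC. KRT17 was low as well, with 1.18 to 1.74 CPM in shYY1 and 1.28 to 1.55 CPM in shNC. Other genes of the list were well counted. TP63 had 51.2 to 53.5 CPM in shYY1 and 44.5 to 53.2 CPM in shNC, and KRT6A had 37.7 to 39.0 CPM in shYY1 and 31.5 to 36.5 CPM in shNC. The neuronal, stromal, immune and endothelial lists each summed to at most 7.14 CPM in any library, with RBFOX3, PTPRC and CD3E at 0 counts in all 4.

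TMBIM6, also called BAX inhibitor 1, sits in the membrane of the endoplasmic reticulum (ER), where it lets calcium leak out of the store, protects cells from death during ER stress and restrains the stress sensor IRE1. GRINA is found in the ER as well and in the Golgi, TMBIM4 in the Golgi, TMBIM1 in lysosomes and endosomes, and GHITM in the inner mitochondrial membrane, where it supports cristae and calcium handling. FAIM2 is known mainly from neurons, where it blocks death signalled through Fas. The members thus have in common a fold and a link to calcium and cell death, but they are spread over several compartments.

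The proteins encoded by the principal transcripts (GENCODE 29, translated) had 237 residues for TMBIM6, 238 for TMBIM4, 311 for TMBIM1, 316 for FAIM2, 345 for GHITM and 371 for GRINA. In pairwise alignments TMBIM1, GRINA and FAIM2 were the closest group: TMBIM1 and FAIM2 were identical at 54.8% of aligned residues, TMBIM1 and GRINA at 49.7%, and GRINA and FAIM2 at 44.7%. TMBIM6 was distant from all of them, with identities of 29.8% to TMBIM4, 29.7% to GHITM, 28.1% to FAIM2, 26.5% to GRINA and 21.1% to TMBIM1. None of the family therefore is a near-identical copy of TMBIM6 at the protein level.

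The sequences shown here are the places where TMBIM6 messenger RNA differs from the other 4 members with a row in a feature described further on: the 2 sites of its annotated 3′ UTR that hold the 7-base words TTCAGAA or TCAGAAA. Capitals mark the words, the strand is plus, the build is GRCh38 and the transcript is the principal GENCODE 29 transcript of TMBIM6.
TMBIM6 site near the start of the 3′ UTR, chr12:49762987-49763015: aatgaaaagcaTCAGAAAagcttttgtac
TMBIM6 site near the end of the 3′ UTR, chr12:49764860-49764888: gtgtttttgaTTCAGAAAtatatgaaatc
In the second site both words overlap in a joined run of 8 bases, 56 bases before the annotated end of the transcript.

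TMBIM6 had by far the lowest fold change of the members. This gene (ENSG00000139644) lies on chromosome 12 from 49707725 to 49764934, plus strand. It had 17692 and 16085 counts in the shYY1 libraries, against 57290 and 63153 counts in the shNC libraries. Scaled to library size, it averaged 243.6 ± 11.5 CPM in shYY1 and 846.4 ± 40.6 CPM in shNC (SD, n = 2 each). Both shYY1 libraries were far below both shNC libraries, and replicates of a group differed little beside that gap. The log2 fold change was -1.80 ± 0.0882 (standard error of the edgeR fit), which is 3.48-fold lower, or a change of -71.2%. The libraries are of whole cultures, so fewer cells with the transcript and less transcript per cell cannot be told apart.

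Few genes had as low a fold change, and none of those was as abundant in reads. Counting TMBIM6 itself, 280 of the 18035 tested genes, or 1.55%, had a log2 fold change at least as negative. Of the 121 genes with at least as many CPM in shNC, 0 had a more negative one. YY1 itself averaged 35.7 ± 1.96 CPM in shYY1 and 113.3 ± 4.23 CPM in shNC (SD, n = 2 each), a log2 fold change of -1.67 ± 0.0880. The absolute log2 fold change of the median tested gene was 0.26.

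TMBIM1, also called RECS1, was higher. It is a lysosomal and endosomal member (ENSG00000135926), on chromosome 2 from 218274197 to 218292535, minus strand. It had 25228 and 23116 counts in shYY1, against 15833 and 19000 counts in shNC. It averaged 348.6 ± 14.6 CPM in shYY1 and 244.6 ± 26.4 CPM in shNC (SD, n = 2 each), and the groups did not overlap. The log2 fold change was 0.51 ± 0.0941, or 1.43-fold. PNKD overlaps TMBIM1 on the other strand, and the labels do not say whether counting used strand, so their reads cannot be told apart. PNKD was counted at 2839 and 2708 in shYY1, against 2817 and 3272 in shNC.

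GHITM, the mitochondrial member (ENSG00000165678, chromosome 10 from 84139509 to 84153568, plus strand), was higher by a smaller margin. It had 23376 and 22929 counts in shYY1, against 17931 and 20102 counts in shNC. It averaged 334.1 ± 2.12 CPM in shYY1 and 267.3 ± 16.0 CPM in shNC (SD, n = 2 each), without overlap between the groups. The log2 fold change was 0.32 ± 0.0807, or 1.25-fold. A long noncoding RNA overlaps it on the other strand, with 7 to 23 counts in shYY1 and 18 to 20 counts in shNC.

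TMBIM4 and GRINA stood close to their control level. TMBIM4, the Golgi member (ENSG00000155957, chromosome 12 from 66135846 to 66170072, minus strand) had 1720 and 1633 counts in shYY1, against 1485 and 1703 counts in shNC. In CPM it averaged 24.2 ± 0.404 in shYY1 and 22.4 ± 1.70 in shNC (SD, n = 2 each), with a log2 fold change of 0.11 ± 0.111. Its shYY1 libraries lay above its shNC libraries by a narrow margin, with 23.9 CPM in the lower shYY1 library and 23.6 CPM in the higher shNC library.

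GRINA (ENSG00000178719, chromosome 8 from 143990056 to 143993415, plus strand) had 8720 and 9349 counts in shYY1, against 9210 and 10521 counts in shNC. It averaged 130.5 ± 9.03 CPM in shYY1 and 138.6 ± 10.1 CPM in shNC (SD, n = 2 each), a log2 fold change of -0.09 ± 0.0877. The shYY1 and shNC libraries of GRINA overlapped. PARP10, which overlaps GRINA on the other strand, had 49 to 80 counts in shYY1 and 57 to 66 counts in shNC.

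Of the 5 members, 3 passed the threshold (edgeR, adjusted p under 0.05 over all tested genes): TMBIM6 as lower, TMBIM1 and GHITM as higher. Over all tested genes 9.94% passed, 5.05% as higher and 4.9% as lower, and nothing is read from the members' count since the comparison chose them. The groups did not overlap for 4 of the 5 members, against 54.9% of all tested genes: 3 lay higher in shYY1, against 26.8%, and 1 lay lower, against 28.1%. The calls of TMBIM1 and GHITM were not firm: TMBIM1 was no longer called without shYY1 replicate 1 (log2 fold change 0.47), and GHITM was called neither without shYY1 replicate 1 (0.33) nor without shYY1 replicate 2 (0.32).

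**Figure D1:**
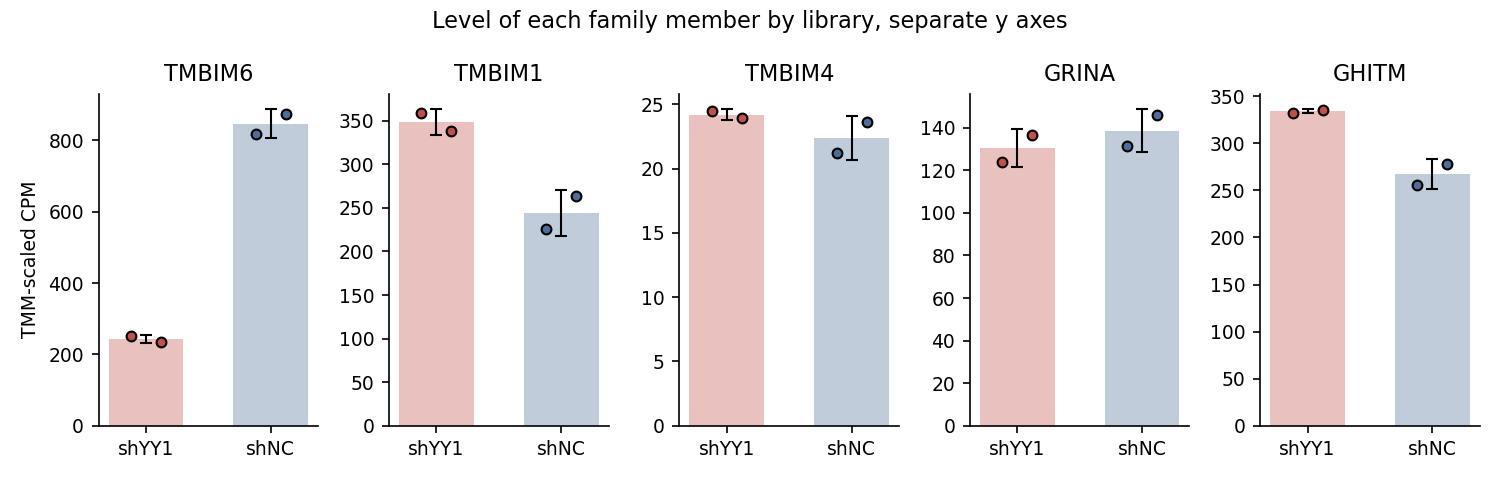
TMM-scaled CPM of the 5 members in shYY1 (left, red) and shNC (right, blue) libraries; bars are means of 2 libraries, error bars SD, points the libraries, and each panel has its own axis from 0. TMBIM6 stands at 243.6 CPM in shYY1 and 846.4 CPM in shNC, TMBIM1 and GHITM are higher in shYY1, and TMBIM4 and GRINA lie near their shNC level.

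A ratio within a library needs no scaling between libraries, and each ratio of TMBIM6 to a paralog was lower in both shYY1 libraries than in both shNC libraries. TMBIM6 counts over TMBIM1 counts gave 0.701 and 0.696 in shYY1, against 3.62 and 3.32 in shNC, 4.96-fold lower. Over GHITM the ratio was 0.757 and 0.702 in shYY1, against 3.2 and 3.14 in shNC, 4.35-fold lower. Replicates of a group lay close together in both ratios, and the groups were far apart.

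Over TMBIM4 the ratio was 10.3 and 9.85 in shYY1, against 38.6 and 37.1 in shNC, 3.76-fold lower. Over GRINA it was 2.03 and 1.72 in shYY1, against 6.22 and 6.0 in shNC, 3.27-fold lower. The smallest drop in the ratio was thus against GRINA, the other member below its shNC level, and the largest against TMBIM1. The log2 fold change of TMBIM6 lay 2.01 below the median of the other 4 members, as a difference of -2.01.

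The authors' FPKM, which divides counts by gene length and library total, puts the members on a common scale. TMBIM6 had 34.0 and 31.0 FPKM in shYY1, against 116.1 and 117.9 FPKM in shNC. In shNC it was the most abundant member and in shYY1 it was last but one. In shYY1 the order was GHITM at 115.7 ± 1.43 FPKM, TMBIM1 at 56.5 ± 3.42, GRINA at 42.5 ± 2.14, TMBIM6 at 32.5 ± 2.14 and TMBIM4 at 4.81 ± 0.176 (SD, n = 2). In shNC it was TMBIM6 at 117.0 ± 1.23 FPKM, GHITM at 95.9 ± 2.15, GRINA at 46.8 ± 1.68, TMBIM1 at 41.0 ± 2.89 and TMBIM4 at 4.61 ± 0.185 (SD, n = 2). No neighbours in either order overlapped in their 2 libraries.

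Part of that order depends on the gene length used. The length implied by the authors' FPKM for TMBIM6, with summed counts as the library total, was 7303 to 7448 bases by library. On average it was 1.19 times the 6186 bases of all its exons merged, and well above the 2836 bases of its principal messenger RNA. Another library total would scale the implied lengths of all genes in that library alike. The factor to merged exons was 1.19 for TMBIM1, TMBIM4 and GRINA as well, but 1.33 for GHITM. Dividing CPM by the principal messenger RNA instead put TMBIM6 above GRINA in shYY1, at 85.9 against 66.3 CPM per kb. It also put TMBIM1 above GRINA in shNC, at 83.3 against 70.4 CPM per kb. GHITM led in shYY1, TMBIM6 led in shNC and TMBIM4 was last in both under either length.

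The family as a whole was lower by less than TMBIM6 alone. The members' FPKM summed to 255.6 and 248.5 in shYY1, against 299.7 and 311.1 in shNC. Without TMBIM6 the order of the groups turned: the sum was 221.6 and 217.5 FPKM in shYY1, against 183.5 and 193.3 FPKM in shNC. TMBIM6 differed by -84.5 FPKM between the group means, while the other members summed differed by 31.1 FPKM, made up of 19.8 for GHITM, 15.5 for TMBIM1, 0.198 for TMBIM4 and -4.32 for GRINA.

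TMBIM6 held 13.3% and 12.5% of the family's summed FPKM in shYY1, against 38.8% and 37.9% in shNC. GHITM averaged 45.9% in shYY1 and 31.4% in shNC, TMBIM1 averaged 22.4% in shYY1 and 13.4% in shNC, and GRINA averaged 16.9% in shYY1 and 15.3% in shNC. TMBIM4 held 1.91% in shYY1 and 1.51% in shNC. Shares of a sum are tied to each other, so the higher shares of the other members follow in part from the lower TMBIM6.

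**Figure D2:**
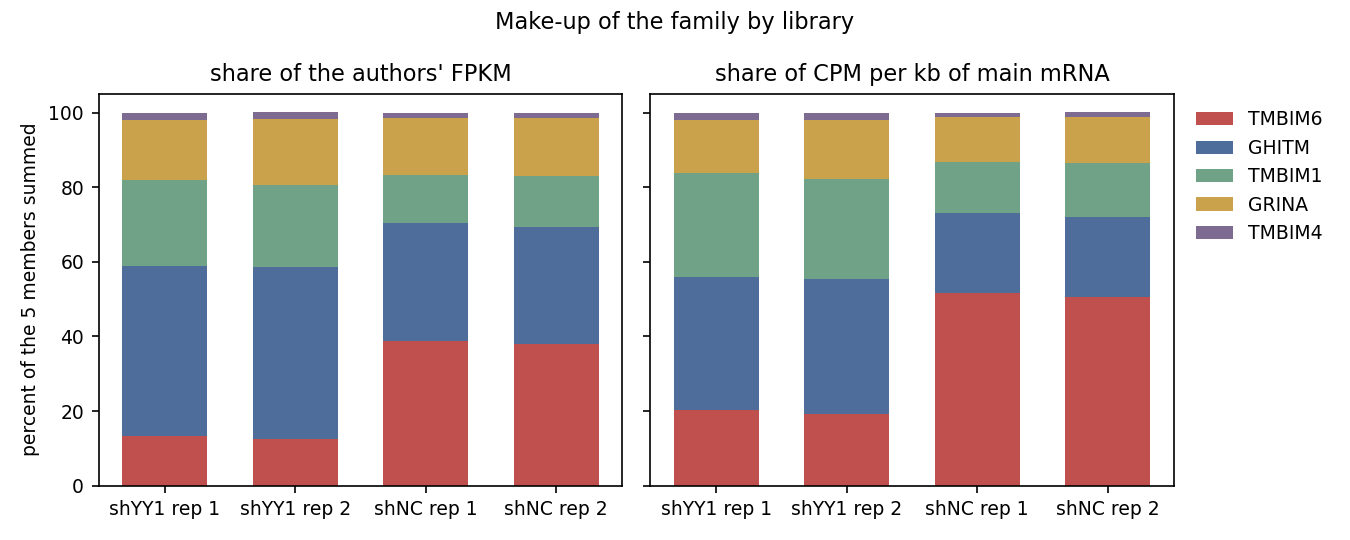
Make-up of the 5 members in each library, as percent of their summed FPKM (left) and of their summed CPM per kb of principal messenger RNA (right), shYY1 libraries before shNC libraries. On the FPKM scale TMBIM6 makes up 13.3% and 12.5% in shYY1 and 38.8% and 37.9% in shNC.

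The 5 nearest tested protein-coding genes on each side of TMBIM6 were read out to see whether its surroundings differed too. By edgeR 0 of these 10 neighbours were called, and DESeq2 and limma-trend also called 0, while 1, ASIC1, had an unadjusted edgeR p under 0.05. With 9.94% of all tested genes called, a count of 0 among 10 is near the background and says little about the surroundings. Their log2 fold changes ran from -0.67 for ASIC1, an acid-sensing ion channel, to 0.64 for AQP6, an aquaporin with 12 to 21 counts per library, with a median of -0.01. FMNL3, a formin on the minus strand whose own start lies 0.32 kb before the first base of the TMBIM6 interval in the table, had 437 and 406 counts in shYY1, against 467 and 426 counts in shNC. Its log2 fold change was -0.05 ± 0.182. The RefSeq starts of TMBIM6 searched below lie well inside that interval, in windows that begin at 49741307 and 49741619. NCKAP5L, the nearest on the other side, had 1015 and 926 counts in shYY1, against 981 and 977 counts in shNC. Of the more distant ones, RACGAP1, a GTPase activator of cytokinesis, had a log2 fold change of 0.10 ± 0.0751 and MCRS1 0.22 ± 0.0989. KCNH3, PRPF40B, FAM186B and BCDIN3D lay between -0.24 and 0.10.

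**Figure D3:**
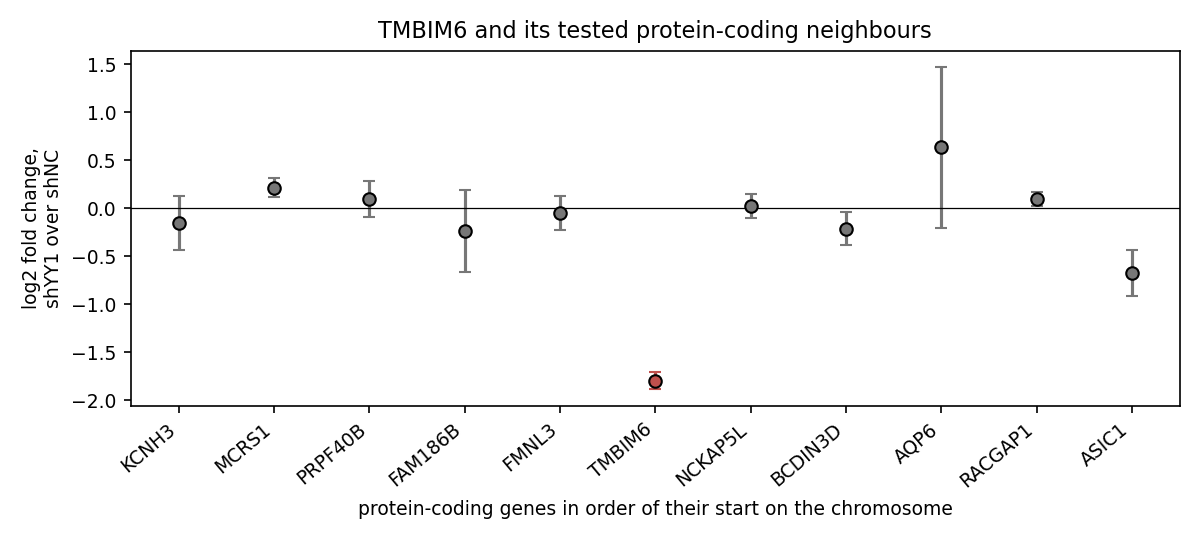
Log2 fold change of shYY1 over shNC with standard errors for TMBIM6 (red) and its 5 nearest tested protein-coding neighbours on each side (grey), in chromosome order. TMBIM6 stands at -1.80 and the neighbours between -0.67 and 0.64.

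The genes whose pattern over the 4 libraries was most like that of TMBIM6 were searched among 9984 protein-coding genes with a mean of at least 5 CPM, by Euclidean distance of centred log2 CPM. The nearest was MSMO1, a sterol oxidase of cholesterol synthesis, at a distance of 0.148. It averaged 22.4 ± 1.23 CPM in shYY1 and 78.3 ± 3.53 CPM in shNC (SD, n = 2 each). YY1 came next at 0.180, followed by EIF4EBP2, a repressor of translation initiation, at 0.265. EIF4EBP2 averaged 72.0 ± 3.38 CPM in shYY1 and 208.5 ± 3.81 CPM in shNC. ZDHHC20, a palmitoyltransferase, followed at 0.299 and AP4S1, a subunit of a vesicle adaptor complex, at 0.326. None of the family was near: the distance to TMBIM6 was 1.72 for GRINA, 1.91 for TMBIM4, 2.12 for GHITM and 2.31 for TMBIM1. With only 4 libraries in 2 groups, this distance mostly measures the fold change.

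The 3′ UTR words shown with the TMBIM6 sites were found in these same data, by ranking all 7-base words by the log2 fold change of the genes that hold them, so their presence in TMBIM6 is a description and supports nothing. The rank came from a t statistic: the mean difference between genes with and without a word, over its standard error. It is therefore not a rank by size of shift. Among 9615 genes with at least 5 CPM, TTCAGAA and TCAGAAA had the most negative t statistics. The first was in the 3′ UTR of 22.3% of these genes and the second in 21.2%. Genes with either word (30.3%) had a median log2 fold change of -0.11, and genes with neither had a median of 0.07.

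TMBIM6 held 3 word copies in its 3′ UTR of 2037 bases, 1 at the first site and 2 overlapping at the second. The other 4 analysed members held none, in annotated 3′ UTRs of 1274 bases for TMBIM1, 897 for GHITM, 574 for GRINA and, by transcript, 120 or 2114 for TMBIM4. FAIM2, which has no value here, held 1. The members without a word had log2 fold changes from -0.09 to 0.51.

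By number of copies, the median log2 fold change was 0.07 over 6700 genes without a copy, -0.04 over 1438 genes with 1, -0.15 over 790 genes with 2 and -0.25 over 687 genes with 3 or more. A joined 8-base run counts as 2 copies, so these classes mix the number of sites with the longer match. The joined 8-base run was in 944 genes, whose median was -0.21. TMBIM6 at -1.80 was far below the median of its class, and 1 gene with 3 or more copies was lower. Annotated 3′ UTRs were longer where copies were more, with median lengths of 713, 2017, 2697 and 4308 bases for 0, 1, 2 and 3 or more copies, and the part of length in this trend was not tested.

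**Figure D4:**
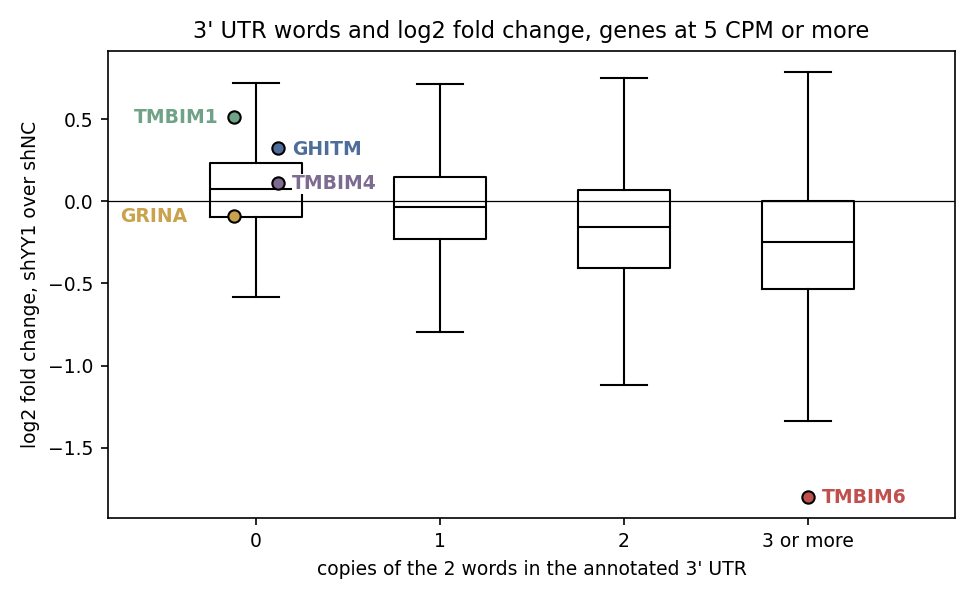
Log2 fold change of shYY1 over shNC by number of copies of the 2 words in the annotated 3′ UTR, for 9615 genes at 5 CPM or more; boxes span the quartiles with the median, whiskers reach the farthest gene within 1.5 box heights, genes beyond are not drawn, and coloured points are the members. TMBIM6 has 3 copies and lies at -1.80, and the other 4 members have 0 copies and lie between -0.09 and 0.51. A joined run of both words counts as 2 copies.

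Promoters were searched on both strands for ATGGCG, a word of YY1 binding sites, and for a longer and a shorter form of it. RefSeq promoters (GRCh38.p14, 250 bases before to 50 after a start) matched TMBIM1 with 3 windows, TMBIM6 with 2 and GHITM with 1, and TMBIM4, GRINA and FAIM2 were without one. The 6 windows held neither ATGGCG nor the longer AANATGGCG, which contains it. The shorter ATGGC, counted on both strands, was present 1 time in the TMBIM6 window that begins at 49741619. It was also present 1 time in the GHITM window and 1 time in the TMBIM1 window that begins at 218289947. The other TMBIM6 window, which begins at 49741307, held 0. Of 35116 promoters of the same length, 10.7% held ATGGCG and 3.19% held AANATGGCG, and the share with ATGGC was not computed. These searches say only which letters are in these windows, and binding of YY1 was not tested.

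The genes that the family's known roles connect it to were read out in 5 lists, where 97 genes were tested. Of these, 12 rose and 7 fell (edgeR, adjusted p under 0.05), or 19.6%, beside 9.94% of all tested genes, and their median log2 fold change was 0.13 beside -0.01 over all. The 2 shares were not matched for abundance, so nothing is read from their difference. With a filter of 5 CPM, 2412 of 10708 genes were called, 26 of them partner genes. The number of partner genes called also shifted when each library was left out in turn, as did the number over all tested genes. TRAF2, TNFRSF10A, TNFRSF10B, BIRC2 and PMAIP1 were called with each library left out, and the other 14 were lost in at least 1 of these fits, with 0 changes of sign.

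Of 22 tested genes of ER calcium channels, pumps and store-operated entry, the compartment TMBIM6 acts on, 2 fell and the other 20 did not pass, a share near the 9.94% of all tested genes. These counts shifted with the setting: 1 rose and 3 fell under DESeq2, 1 rose and 4 fell with a filter of 5 CPM, 2 rose and 3 fell without shNC replicate 1, and 3 rose and 3 fell without shNC replicate 2. CANX, the lectin chaperone calnexin of the ER, had 852.5 and 833.9 CPM in shYY1, against 1114.8 and 1085.6 CPM in shNC, a log2 fold change of -0.38 ± 0.0845 (adjusted p = 0.024). ATP2C1, the calcium pump of the Golgi, averaged 92.4 ± 2.38 CPM in shYY1 and 115.5 ± 1.46 CPM in shNC (SD, n = 2 each; edgeR adjusted p = 0.0324). Both lost their call without shYY1 replicate 1 (adjusted p = 0.271 for CANX and 0.22 for ATP2C1) and without shYY1 replicate 2 (0.36 for CANX and 0.358 for ATP2C1). The IP3 receptor ITPR3, a release channel, averaged 338.8 ± 2.63 CPM in shYY1 and 280.3 ± 6.81 CPM in shNC, with an adjusted p of 0.0567 by edgeR. The ER calcium pump ATP2A2 had 629.7 and 626.9 CPM in shYY1, against 596.9 and 615.1 CPM in shNC. The median log2 fold change of the list was 0.08.

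Of 19 tested genes of ER stress sensors, IRE1 partners and ER-associated degradation, 5 rose and 1 fell, with a list median of 0.22. The share called over all tested genes, not matched for abundance, was 9.94%. Without shNC replicate 2 more genes were called, both in the list and over all tested genes. TRAF2, the adaptor that IRE1 uses to reach JNK signalling and that also serves TNF receptors, had 117.2 and 115.9 CPM in shYY1, against 70.6 and 77.5 CPM in shNC, a log2 fold change of 0.65 ± 0.0831 (adjusted p = 0.00251). DNAJB9, a chaperone that holds IRE1 inactive, averaged 14.1 ± 1.08 CPM in shYY1 and 8.23 ± 1.08 CPM in shNC (SD, n = 2 each; edgeR adjusted p = 0.0174). Of the degradation genes, SYVN1, a ubiquitin ligase, rose by 0.37 ± 0.0827 on the log2 scale (adjusted p = 0.0252), EDEM1 by 0.34 ± 0.0855 (0.0393) and DERL1 by 0.29 ± 0.0751 (0.044).

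ATF6B, a membrane-bound transcription factor of the ER stress response, had 78.7 and 71.4 CPM in shYY1, against 102.3 and 119.0 CPM in shNC, and fell with a log2 fold change of -0.56 ± 0.0988 (adjusted p = 0.00964). The IRE1 gene ERN1 averaged 14.9 ± 1.11 CPM in shYY1 and 11.3 ± 0.543 CPM in shNC, with an adjusted p of 0.0988 by edgeR. HSPA5, the chaperone BiP, had a log2 fold change of 0.19 ± 0.0859 (adjusted p = 0.203) and XBP1, the target of IRE1 splicing, 0.21 ± 0.0873 (adjusted p = 0.183). Gene-level counts do not show XBP1 splicing. Without shYY1 replicate 2, SYVN1 (adjusted p = 0.268), EDEM1 (0.173), DERL1 (0.365), DNAJB9 (0.0564) and ATF6B (0.0517) lost their calls. Without shYY1 replicate 1, SYVN1 (0.128), EDEM1 (0.314) and DERL1 (0.282) did, and without shNC replicate 1, DNAJB9 (0.0533) did.

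Of 24 tested genes of mitochondrial calcium uptake and inner membrane upkeep, the surroundings of GHITM, 2 rose and 3 fell, with a list median of 0.02. Beside this, 9.94% of all tested genes were called. VDAC1, the main pore of the outer membrane, had 340.4 and 338.9 CPM in shYY1, against 450.1 and 499.3 CPM in shNC, a log2 fold change of -0.48 ± 0.0851 (adjusted p = 0.0096). VDAC3, another pore of that family, moved the other way, by 0.32 ± 0.0849 (adjusted p = 0.0463).

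Of the inner membrane proteases in the list, 1 rose, 1 fell and the other 2 did not pass. AFG3L2, a subunit of the protease that faces the matrix and that GHITM is known to bind, rose by 0.34 ± 0.0765 on the log2 scale (adjusted p = 0.0254). YME1L1, the protease that faces the intermembrane space, averaged 86.6 ± 6.24 CPM in shYY1 and 111.2 ± 0.632 CPM in shNC (SD, n = 2 each; edgeR adjusted p = 0.0292). SPG7, the partner subunit of AFG3L2, had a log2 fold change of -0.04 ± 0.0856 (adjusted p = 0.843), and OMA1, a stress-activated protease, had 0.10 ± 0.146 (adjusted p = 0.735). The uniporter pore MCU had 80.3 and 78.3 CPM in shYY1, against 72.5 and 75.6 CPM in shNC, and did not pass. Without shYY1 replicate 2 the calls of these 4 genes were lost, with adjusted p of 0.107 for VDAC1, 0.197 for VDAC3, 0.34 for AFG3L2 and 0.375 for YME1L1. They were also lost without shYY1 replicate 1, with 0.0958 for VDAC1, 0.371 for VDAC3, 0.134 for AFG3L2 and 0.0978 for YME1L1.

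Of 15 tested genes of the Fas and extrinsic death pathway, where FAIM2 acts, 3 rose and 1 fell, with a list median of 0.13. Among all tested genes, not matched for abundance, 9.94% were called. The TRAIL receptors rose together: TNFRSF10B had 136.6 and 141.4 CPM in shYY1, against 89.6 and 95.7 CPM in shNC, a log2 fold change of 0.59 ± 0.0784 (adjusted p = 0.0031). TNFRSF10A had 57.8 and 60.7 CPM in shYY1, against 36.7 and 43.6 CPM in shNC, a log2 fold change of 0.56 ± 0.106 (adjusted p = 0.0128). BIRC2 and BIRC3, neighbouring genes for inhibitor of apoptosis proteins that bind TRAF2, went in opposite directions. BIRC2 averaged 15.1 ± 3.50 CPM in shYY1 and 29.4 ± 2.14 CPM in shNC, a log2 fold change of -0.97 ± 0.160 (edgeR adjusted p = 0.00771). BIRC3 averaged 13.9 ± 0.329 CPM in shYY1 and 9.66 ± 0.152 CPM in shNC (edgeR adjusted p = 0.0444), and lost its call with any library left out (adjusted p from 0.0635 without shNC replicate 2 to 0.22 without shYY1 replicate 2). FAS itself had 5.04 and 5.40 CPM in shYY1, against 4.80 and 4.75 CPM in shNC, and CASP10 had 0 counts in all 4 libraries.

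Of 17 tested BCL2 family genes, which share the control of mitochondrial cell death with the TMBIM proteins, 2 rose and the other 15 did not pass. That share is near the 9.94% of all tested genes, and the list median was 0.28. More genes of the list rose under DESeq2 and with a filter of 5 CPM (5 each). Those settings also called more of all genes, 2711 of 18035 under DESeq2 and 2412 of 10708 with the filter. Leaving out a library moved the count in either direction, so its nearness to the share of all genes depends on the libraries used. Of these fits, the one without shNC replicate 2 called the most genes, in the list and over all tested genes. PMAIP1, the BH3-only protein NOXA, had 54.1 and 51.5 CPM in shYY1, against 25.6 and 26.6 CPM in shNC, a log2 fold change of 1.02 ± 0.0947 (adjusted p = 0.000778). BCL2L13, a mitochondrial outer membrane protein, averaged 147.9 ± 1.25 CPM in shYY1 and 113.3 ± 1.87 CPM in shNC (SD, n = 2 each; edgeR adjusted p = 0.0136). Its call was lost without shYY1 replicate 1 (adjusted p = 0.119) and without shYY1 replicate 2 (0.161). BAX, the killer protein that gave TMBIM6 its older name, had 113.7 and 110.5 CPM in shYY1, against 95.6 and 116.7 CPM in shNC, so the groups overlapped.

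The 3′ UTR words were also looked up in these genes, as a description. The words were picked for low log2 fold changes in these same genes, so an excess among genes that fell is built in, and 30.3% of all searched genes held either word. Of the 7 partner genes that fell, 6 held a word, the exception being ATP2C1, and of 11 searched partner genes that rose, 4 held a word. Of the 4 searched genes most like TMBIM6 in pattern, MSMO1, EIF4EBP2 and AP4S1 held a word and ZDHHC20 did not. Of 5 searched neighbours of TMBIM6, 2 held a word, FMNL3 and BCDIN3D.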

How the data were processed

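The table deposited for the 4 KYSE30 libraries holds gene counts, as whole numbers, and FPKM, per the file headers; columns were assigned to samples by name. The submitters' processing notes name Bowtie 0.12.2 with mm8 and mm9, which are mouse builds and cannot describe this table of human genes. Aligner, counter, annotation and strand setting are otherwise not given in the sources. For YY1 and the members, the length implied by count, FPKM and the library's summed counts varied little between libraries. It was 7303 to 7448 bases for TMBIM6 and 10106 to 10309 bases for YY1. The deposited FPKM of these genes thus follows their counts and is no independent measurement. Coordinates are those of the deposited table; sequences are from GENCODE 29 (GRCh38) and RefSeq (GRCh38.p14).

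Counts were fitted with edgeR 4.0.16 (R 4.3.3; quasi-likelihood, robust, TMM factors 0.980 to 1.04) after filterByExpr (minimum count 10, minimum total 15), with Benjamini-Hochberg adjustment over 18035 genes at 0.05. The biological coefficient of variation common to all genes was 20.2%, with 2 residual degrees of freedom. CPM values are TMM-scaled, and log2 fold changes were computed from the deposited counts as shYY1 over shNC.

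Alternatives were RLE factors, library totals alone, other filters, DESeq2 1.42.0, limma-trend 3.58.1 on log2 CPM (prior count 2), limma-trend on log2 of FPKM plus 1 or plus 0.1, restricted to genes at 1 FPKM or above in at least 2 libraries, a replicate block and leaving out each library. On simulated counts for shYY1 against shNC, with 200 genes changed, the script recovered 28.5% of 1.5-fold changes (17398 genes; 57 true and 4 false calls) and 57% of 2-fold changes (17351 genes; 114 true and 1 false).

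Members, lists and words were chosen with earlier results of these data known. Named are YY1, the members, up to 4 called genes a list by adjusted p and up to 2 in the other direction, 5 genes nearest in pattern and 5 neighbours a side. EDEM1, DERL1, ITPR3, ATP2A2, ERN1, HSPA5, XBP1, SPG7, OMA1, MCU, FAS and BAX lie outside that rule and were named after their values were seen. The mitochondrial list of 25 symbols held 2 symbols of the same gene, of which 1 had a row. A called gene of that list is counted but not reported here.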

Additional observations from a re-analysis of the deposited data

How the results depend on the processing

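The members were chosen on these values, so their ranges over settings are a description and support nothing. Over 13 alternative fits the log2 fold change of TMBIM6 ran from -1.85 to -1.74 (-1.84 to -1.74 with a library left out), and that of GRINA from -0.16 to -0.01. No member changed sign in these 13. The difference of TMBIM6 to the median of the other members ran from -2.06 to -1.97 with a library left out. The TMBIM6 share of summed family FPKM differed by -25.4 percentage points (-25.9 to -25.0 with a library left out). It differed by -33.2 points on CPM, which ignores length, and by -31.3 points on CPM per kb of principal messenger RNA, an alternative added after seeing the data.

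Counts of calls were less stable. edgeR on all 4 libraries called 1793 genes (910 higher, 883 lower), DESeq2 called 2711, and leaving out a library gave 1024 (without shYY1 replicate 2), 1141 (without shYY1 replicate 1), 1804 (without shNC replicate 1) or 3304 (without shNC replicate 2). With library totals alone, 691 were higher and 1019 lower. Among partner genes, 19 were called, and 6 to 37 with a library left out. A lone library is assumed to vary like the other group. The cause of these moves was not tested. With the replicate block 2902 genes were called. The labels do not say that the numbers pair samples. The deviations of same-numbered libraries correlated at 0.00395 over the tested genes. A single value over all genes cannot show whether these libraries shared a culture or preparation, so pairing is not known.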
